A study of Homo sapiens with 49 samples.

Results

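Mono-methylation of histone H3 at lysine 4 (H3K4me1) marks enhancers, the stretches of DNA that act on genes from a distance, whereas tri-methylation of the same residue (H3K4me3) marks active promoters. Enhancers differ between cell types far more than promoters do. The regions described here carried H3K4me1 in 2 epithelial lines of different origin. Distal H3K4me1 regions shared by T-47D and Ishikawa cells were taken as the peaks of the T-47D H3K4me1 DMSO list that overlapped the Ishikawa H3K4me1 DMSO list by at least 1 bp and none of the 4 H3K4me3 lists (both lines, both treatments), on chromosomes 1 to 22 and X. This gave 698 members of 6406 T-47D regions on these chromosomes. Of the 6406, 1750 overlapped Ishikawa H3K4me1, and 1052 of those were left out because they touched H3K4me3. The Ishikawa H3K4me1 DMSO list was longer, with 28411 regions, and the part of list length in the overlap was not tested.

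T-47D is a line from human breast ductal carcinoma and Ishikawa a line from endometrial adenocarcinoma, and both carry estrogen receptor. Chromatin immunoprecipitation with sequencing (ChIP-seq) was done on cells grown in hormone-depleted medium. They received 10 nM 17β-estradiol (E2) or DMSO, the vehicle, and were harvested after 1 h where a protein was mapped and after 8 h where a histone mark was mapped. SIN3A and Ishikawa H3K36me3 were the exceptions. The SIN3A labels name stripped media and full media in place of E2, and the H3K36me3 label names no treatment. The H3K36me3 list held 114 regions, none of them on a distal H3K4me1 region of either line. The 45 peak lists (21 from Ishikawa, 24 from T-47D) came from single libraries, except for 2 DMSO and 2 E2 libraries of T-47D RNA polymerase II (RNAPII, labelled Pol2). A difference between single libraries has no replicate check, so no test was made on it, and the exact (Clopper-Pearson) 95% intervals below cover counting error only. Each line stands for its tissue as 1 cultured line.

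The lists held from 2 to 46282 regions, and the number of reads behind them was not part of the lists. List lengths differed between treatments of the same protein. Ishikawa JUN (labelled c-JUN) had 3768 regions under DMSO and 18311 under E2, Ishikawa LSD1 had 8618 and 18384, T-47D JUN had 28703 and 24885, and T-47D H3K4me1 had 6408 and 1960. T-47D LSD1 (42 and 442 regions), T-47D SIN3A (75 in stripped and 649 in full media) and Ishikawa c-MYC (61 and 2) were too short to place a protein on more than a few enhancers. Other short lists were T-47D RARA (844 and 755) and, under DMSO, T-47D MAX (199), T-47D c-MYC (601) and Ishikawa RARA (137). T-47D H3K27me3 under E2 had 107 regions. As background, the share of all 4665 distal H3K4me1 regions of T-47D, or of all 17162 of Ishikawa, that carried the same peak is given beside the count of members with a peak of a single list. Counts over several lists are given without it unless a share is printed. Peaks of both lines were scored on the T-47D interval of a member. The distal Ishikawa regions are Ishikawa intervals, which were wider (median 284 bp against 234.5 bp).

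Several proteins mapped here act at enhancers. JUN is a subunit of AP-1, a factor that binds the letters TGANTCA and opens chromatin in many epithelial cells. LSD1 removes methyl groups from mono- and di-methylated H3K4, and SIN3A is the scaffold of a histone deacetylase complex. TAF1 is the largest subunit of the general factor TFIID, MAX is the DNA-binding partner of MYC, and RARA is a retinoic acid receptor. RNAPII is found at active enhancers, where it makes short transcripts.

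The 5 regions printed here show what the letters under a JUN peak look like in regions where both lines had one. They head the members with JUN in both lines when ranked by JUN fold enrichment in the weaker line. Fold enrichment is the ratio of ChIP signal to local background at the summit of a peak. Each window covers 200 bases (GRCh37, plus strand) around the strongest JUN summit, 5′ to 3′, with every TGANTCA in capitals.
ANKRD2, chr10:99334512-99334711: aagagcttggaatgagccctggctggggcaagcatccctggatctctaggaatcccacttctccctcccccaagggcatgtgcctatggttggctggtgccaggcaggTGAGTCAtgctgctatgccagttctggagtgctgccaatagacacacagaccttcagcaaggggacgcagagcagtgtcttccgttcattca
IGFBP2, chr2:217530043-217530242: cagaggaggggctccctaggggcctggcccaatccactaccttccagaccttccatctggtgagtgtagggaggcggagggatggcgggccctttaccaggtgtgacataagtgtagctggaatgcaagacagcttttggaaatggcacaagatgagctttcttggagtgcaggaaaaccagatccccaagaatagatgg
MYEOV, chr11:69069191-69069390: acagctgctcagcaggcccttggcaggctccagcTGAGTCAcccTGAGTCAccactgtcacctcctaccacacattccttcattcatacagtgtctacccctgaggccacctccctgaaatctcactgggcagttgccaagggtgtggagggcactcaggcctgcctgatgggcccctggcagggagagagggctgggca
CHTF18, chr16:845684-845883: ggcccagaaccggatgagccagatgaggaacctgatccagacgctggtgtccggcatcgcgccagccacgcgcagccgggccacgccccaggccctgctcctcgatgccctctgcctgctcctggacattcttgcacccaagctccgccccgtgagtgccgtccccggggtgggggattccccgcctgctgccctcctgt
U2SURP, chr3:142695545-142695744: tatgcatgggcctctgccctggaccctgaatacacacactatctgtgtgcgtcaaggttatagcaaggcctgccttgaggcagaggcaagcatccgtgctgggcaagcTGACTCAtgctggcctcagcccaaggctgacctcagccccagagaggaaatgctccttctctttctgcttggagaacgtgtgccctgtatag
The window near MYEOV held 2 matches, those near ANKRD2 and U2SURP held 1 each, and those near IGFBP2 and CHTF18 held none, which says only that these letters were not in those 200 bases. The other JUN summits at these regions lay within 85 bp of the window's centre in all 5 regions.

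The members were chosen by their H3K4me1 peaks and by the absence of H3K4me3, so their H3K4me1 values under DMSO are a description. The H3K4me1 fold enrichment ran from 3.17 to 14.4 in T-47D, with a median of 6.82, and from 3.54 to 31.4 in Ishikawa, with a median of 9.03. In 535 of the 698 members it was higher in Ishikawa. Across the 698 regions Spearman's rho between the lines was −0.03, given as a description over regions that share the same 2 libraries. A member had a median width of 234.5 bp, and overlapped its Ishikawa partner by a median of 194 bp. Just inside the rule, the smallest overlap was 2 bp and 24 members overlapped by under 50 bp, while just outside it 31 T-47D-only regions lay within 50 bp of an Ishikawa region. On the H3K4me3 side, 21 members lay within 50 bp of an H3K4me3 region, the nearest at 4 bp, and 30 of the regions left out overlapped one by under 50 bp.

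The 10 members with the highest H3K4me1 fold enrichment in both lines lay nearest to PGRMC2, RREB1, LAMP1, CDCP1, CAPN5, RXRA, RIPOR3, ENSG00000255872, TLN2 and MTMR3. An intronic region of RREB1, a zinc finger factor of the RAS pathway, had values of 11.1 in T-47D and 12.0 in Ishikawa (chr6:7201853-7202292). A region upstream of CDCP1, a transmembrane protein of epithelial cells, had 11.03 and 15.1 (chr3:45208498-45208771). Both kept H3K4me1 under E2 in both lines, at 8.79 and 14.0 near RREB1 and at 6.26 and 9.91 near CDCP1. Neither carried a peak of any mapped protein. They lay close to H3K4me3 regions, at 9 bp for RREB1 and 181 bp for CDCP1.

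Members were closer to promoters than the H3K4me1 regions of 1 line alone. The median gap to the nearest H3K4me3 region was 1160 bp for members, 6129 bp for the 3967 T-47D-only distal regions and 6570 bp for the 16602 Ishikawa-only distal regions. In all, 333 members (47.7%, interval 43.9 to 51.5%) lay under 1000 bp from H3K4me3, against 24.3% of T-47D-only and 25.1% of Ishikawa-only regions. The distance to the nearest protein-coding transcription start site was shorter too, with a median of 9478 bp against 14730 bp and 15070 bp. The intervals of the shares did not overlap, but regions of 1 list are not replicates and no test was made.

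The name distal holds by the rule but only in part by the Ishikawa peaks and the annotation. For 143 members (20.5%) the overlapping Ishikawa H3K4me1 region itself touched H3K4me3. The background of distal Ishikawa regions holds no such region. In GENCODE release 44, 141 members (20.2%) lay under 1000 bp from an annotated start site of any gene, and 33 lay within 250 bp of one. ERBB2, the receptor tyrosine kinase gene, had 2 such members, at 82 bp and 17 bp from annotated starts. At the other end, 59 members were over 100000 bp from any protein-coding start. The T-47D summit lay in an intron of a protein-coding gene in 334 members, between genes in 232, in an intron of a non-coding gene in 64, in a non-coding exon in 36, in an untranslated region in 17 and in a coding exon in 15. The share in protein-coding introns, 47.9%, was close to the 48.0% of T-47D-only and the 50.7% of Ishikawa-only regions.

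**Figure D1:**
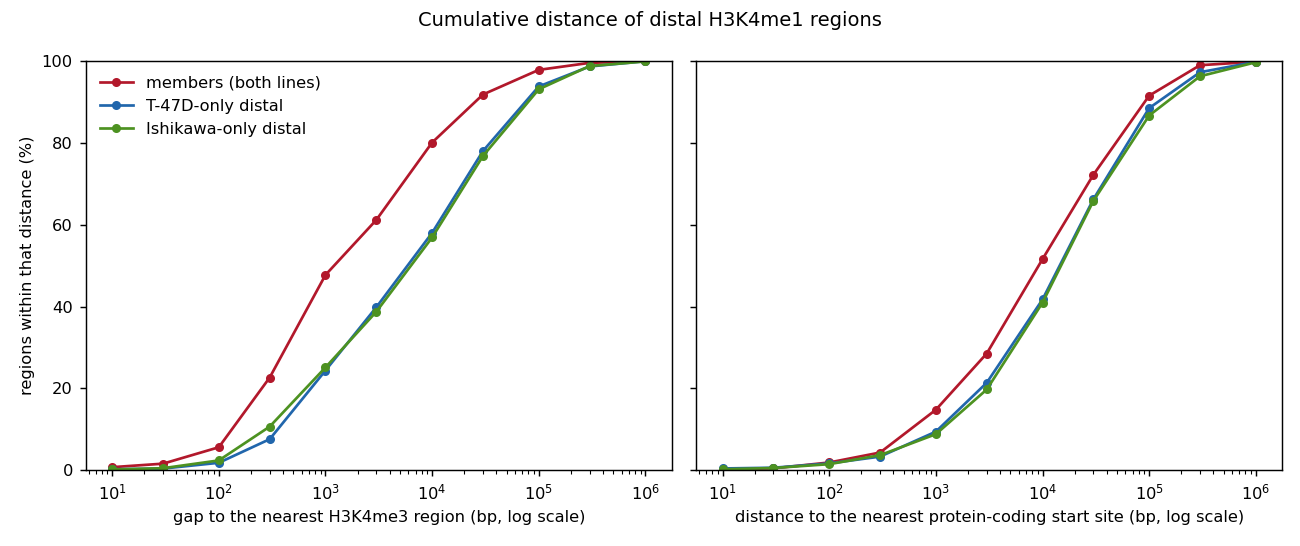
Percent of regions (y axis) within a given distance (x axis, bp, log scale) of the nearest H3K4me3 region (left) and of the nearest protein-coding start site (right). The line of the 698 members lies above those of T-47D-only and Ishikawa-only distal regions at 1000 bp, where 47.7%, 24.3% and 25.1% lay closer to H3K4me3.

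Most members kept H3K4me1 under E2 in Ishikawa and few did in T-47D. An Ishikawa H3K4me1 E2 peak lay on 503 members (72.1%, interval 68.6 to 75.4%), against 50.4% of all distal Ishikawa regions. A T-47D H3K4me1 E2 peak lay on 154 members (22.1%, interval 19.0 to 25.3%), against 18.7% of all distal T-47D regions, from a list with 0.306 times as many regions as the DMSO list. Both lines kept the mark on 113 members, Ishikawa alone on 390, T-47D alone on 41 and neither on 154. TEAD1, which encodes the DNA-binding partner of YAP, and CTNNA1, which encodes α-catenin, each had a member with the mark in both lines and treatments.

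Members that kept the mark had a higher median DMSO fold enrichment in the same line, clearly so in Ishikawa only. In Ishikawa the median DMSO fold enrichment was 9.71 for members with an E2 peak and 8.04 for those without. In T-47D it was 7.16 and 6.78. Where a peak was present in both treatments, the median log2 change of fold enrichment, E2 minus DMSO, was −0.14 over 503 members in Ishikawa and −0.24 over 154 members in T-47D. The same medians over all regions with both peaks were −0.06 (17618 regions) and −0.30 (1375 regions), so the members moved no further than the lists as a whole in T-47D. Applied to the E2 lists, the rule gave 201 regions, of which 101 overlapped a member.

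Of the 698 members, 371 carried no peak of any mapped protein in either line. A protein was present on the other 327, with 1 protein on 129, 2 on 131, 3 on 42 and 4 to 6 on 25. RNAPII was found on 258 members, JUN on 209, LSD1 on 81, TAF1 on 40, SIN3A on 31, MAX on 7, and RARA and c-MYC on 1 each. These counts pool lists of unequal length over lines and treatments. RNAPII was mapped in T-47D alone, and 80 of the 81 members with LSD1 had an Ishikawa peak. No member had a T-47D MAX, RARA or SIN3A peak (0 of 698 members each, which allows a share of up to 0.43%, taken as 3 counts of 698). Of all 4665 distal T-47D regions, MAX lay on 0 under DMSO and 2 under E2, and RARA and SIN3A on 0. The absence was thus not particular to the members. H3K27me3, the mark of Polycomb silencing, was on 8 members in T-47D under DMSO (1.15%) and on 4 in Ishikawa under DMSO (0.57%), against 1.01% and 0.61% of all distal regions of the line.

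**Figure D2:**
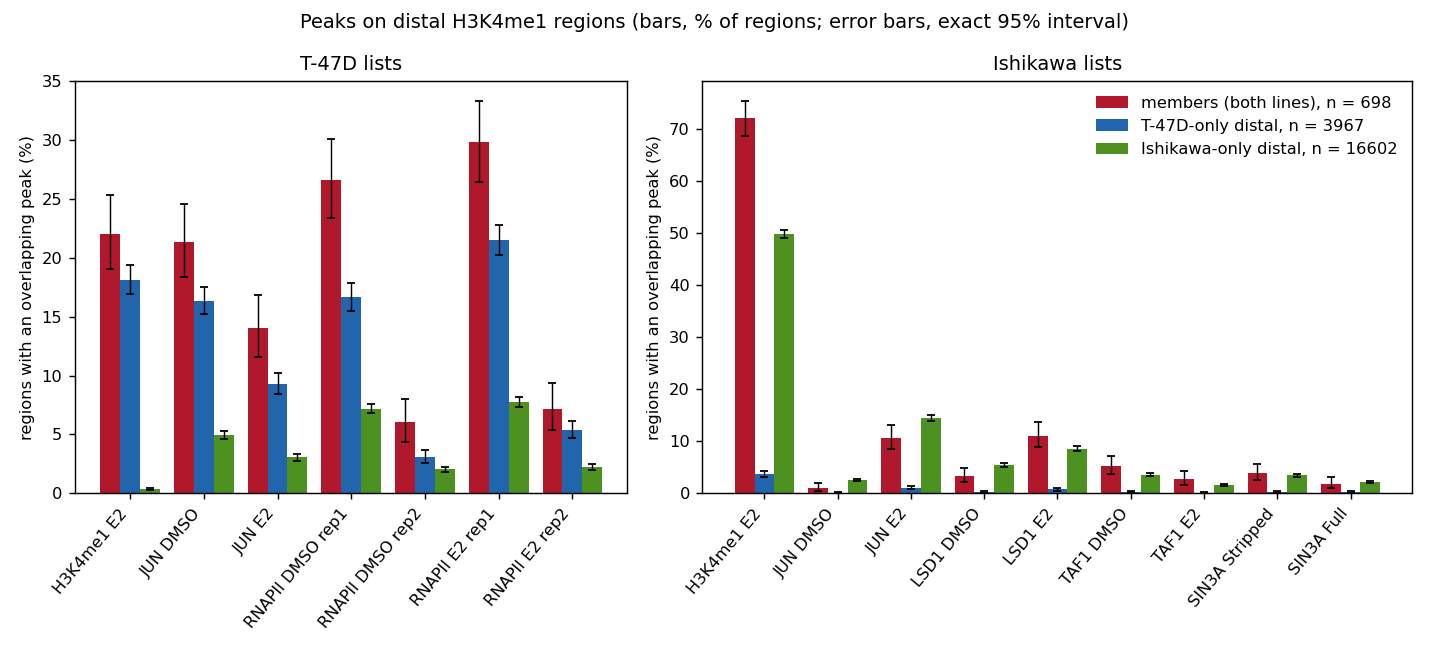
Percent of distal H3K4me1 regions (y axis) with an overlapping peak in each T-47D list (left) and Ishikawa list (right), for the 698 members, 3967 T-47D-only and 16602 Ishikawa-only regions, with exact 95% intervals as error bars. Members had the highest bar in each T-47D list plotted, and in Ishikawa for H3K4me1 E2, LSD1 E2, TAF1 and SIN3A in stripped media, whereas Ishikawa-only regions had it for JUN, LSD1 DMSO and SIN3A in full media.

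In T-47D, JUN lay on more of the members than of T-47D-only regions under both treatments. A T-47D JUN peak lay on 149 members under DMSO (21.3%, interval 18.4 to 24.6%) and on 98 under E2 (14.0%, interval 11.5 to 16.8%), against 17.1% and 9.99% of all distal T-47D regions. T-47D-only regions had 16.4% and 9.3%. With the JUN summit inside the region the shares were 6.02% of members and 5.47% of T-47D-only regions under DMSO, and 4.58% and 2.65% under E2. JUN was present under both treatments on 75 members, under DMSO alone on 74 and under E2 alone on 23. On the 75, the fold enrichment was about the same in both treatments (medians of 14.5 and 13.8, median log2 change 0.05), while over the 20590 T-47D JUN regions with both peaks the median log2 change was 0.47.

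In Ishikawa the number of members with JUN went the other way. It was 7 under DMSO (1.0%) and 74 under E2 (10.6%, interval 8.4 to 13.1%), against 2.56% and 14.4% of all distal Ishikawa regions. The members' shares were thus below the background in both. The background regions were wider, with a median of 284 bp against 234.5 bp, and the part of width in these shares was not tested. All 7 kept their peak under E2, and the fold enrichment was higher under E2 in each of them, with medians of 16.3 and 35.96. The median log2 change was 0.96 on the 7 members and 0.77 over the 3578 Ishikawa JUN regions with both peaks. The number of members rose by a factor of 10.6 and that of the whole list by 4.86. In T-47D the factors were 0.658 for members and 0.867 for the list. Over all distal regions of the line, the number with JUN went from 439 to 2477 in Ishikawa and from 798 to 466 in T-47D. The factor of 10.6 starts from only 7 members under DMSO.

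The 2 lines shared part of their JUN regions. JUN of any treatment lay on 172 members in T-47D and 74 in Ishikawa, and on 37 in both, which is 21.5% of the 172 and 37 of the 74. Over all distal T-47D regions the overlap was 7.03% of the regions with T-47D JUN and 55.7% of those with Ishikawa JUN, and over all distal Ishikawa regions 31.4% and 14.0%. Ranked by the weaker line, the first of these lay in an intron of ANKRD2, where the fold enrichment was 19.4 under DMSO and 37.7 under E2 in Ishikawa and 25.8 under DMSO in T-47D, with no T-47D peak under E2. Near IGFBP2, which encodes a binding protein of insulin-like growth factors, JUN had no Ishikawa peak under DMSO, 23.2 under E2 in Ishikawa, and 21.8 and 10.2 in T-47D. In an intron of U2SURP it was 28.8 under E2 in Ishikawa and 17.1 under DMSO in T-47D, and absent from the other 2 lists. In these 3 regions T-47D JUN was lower or absent under E2, but in the other 2 of the 5 it was not. It was 33.1 and 47.3 near CHTF18 and 21.2 and 21.7 near MYEOV under DMSO and E2. Ishikawa JUN was higher or present under E2 in all 5, each from 1 library.

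The letters TGANTCA, searched on both strands, were more frequent under Ishikawa JUN than under T-47D JUN. In 200-base windows at JUN summits they were present under 35 of 72 Ishikawa E2 peaks on members (48.6%, interval 36.7 to 60.7%), 33.6% of the Ishikawa E2 peaks on all distal regions, and 17.1% of all Ishikawa E2 peaks. On members, 22 of 144 T-47D DMSO peaks (15.3%, interval 9.8 to 22.2%) and 8 of 95 E2 peaks (8.4%) held them, against 10.9% and 6.25% on all distal T-47D regions. The JUN summit lay inside the H3K4me1 peak in 42 of the 149 members with T-47D JUN under DMSO (28.2%) and in 31 of the 74 with Ishikawa JUN under E2 (41.9%). Its median distance from the member's middle was 214 bp and 165 bp. The JUN summit was thus more often beside the H3K4me1 peak than inside it, and neighbouring members could lie under 1 JUN peak, since the 149 members lay on 144 peaks.

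In 300-base windows at the middle of the H3K4me1 regions, the shares with TGANTCA were 12.0% in members, 9.0% in T-47D-only and 12.9% in Ishikawa-only regions. The nuclear receptor half-site AGGTCA was found in 203 members (29.1%, interval 25.7 to 32.6%), against 22.9% and 21.9%. Half-site shares were above those of both other groups without overlap of the intervals. The median GC content was also higher in members, at 54.0% against 52.3% and 49.7%, and its part in these shares was not tested. The full estrogen response element was in none of the 698 members, which allows a share of up to 0.43% by the same limit of 3 counts. It was in 2 T-47D-only regions and in no Ishikawa-only region. The FOXA letters TGTTTAC were in 3.9% of members against 3.5% and 3.8%, and the GATA letters AGATAA in 9.5% against 10.6% and 12.2%.

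LSD1 lay on 23 members under DMSO (3.3%) and on 77 under E2 (11.03%, interval 8.8 to 13.6%) in Ishikawa, against 5.42% and 8.71% of all distal Ishikawa regions. The E2 interval reached close to the background, and the share was 8.45%, below it, for members defined by a reciprocal overlap of 50%. With the LSD1 summit inside the region, it was 4.87% for members and 4.36% for all distal Ishikawa regions under E2. It was present under both treatments on 20 members, under DMSO alone on 3 and under E2 alone on 57. Under E2, 36 members carried both LSD1 and JUN, which is 46.8% of the members with LSD1 and 48.6% of those with JUN. Of the members without JUN under E2, 6.57% had LSD1. Over all distal Ishikawa regions the shares of JUN regions with LSD1 and of regions without JUN were 34.8% and 4.30%.

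The other Ishikawa proteins were on few members. TAF1 was on 36 under DMSO (5.2%) and 19 under E2 (2.7%), against 3.68% and 1.67% of all distal Ishikawa regions. SIN3A was on 27 in stripped media (3.9%) and 13 in full media (1.9%), against 3.64% and 2.17%. MAX was on 5 under each treatment (0.72%), against 0.513% and 0.501%. The intervals of the members' TAF1 shares reached down to the background. With the TAF1 summit inside the region, the DMSO share was 1.58% for members and 1.68% for all distal Ishikawa regions.

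**Figure D3:**
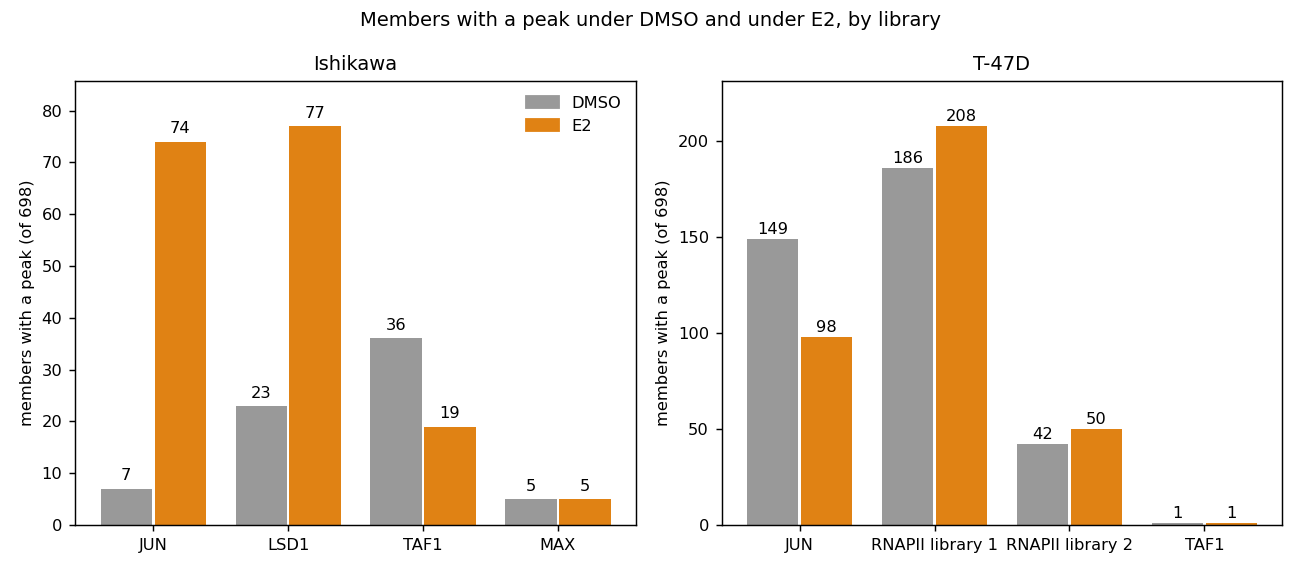
Number of the 698 members with a peak (y axis) under DMSO (grey) and E2 (orange), for each library, in Ishikawa (left) and T-47D (right). Ishikawa JUN went from 7 to 74 and LSD1 from 23 to 77, whereas T-47D JUN went from 149 to 98.

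RNAPII, with replicates in T-47D, was the only mark that allowed a test of E2 against DMSO. It lay on 186 and 42 members in the 2 DMSO libraries and on 208 and 50 in the 2 E2 libraries. The first library of each treatment had about 4 times as many as the second, and the libraries of the 2 treatments overlapped. The difference, E2 minus DMSO, was 0.21 on the log2 scale, a ratio of 1.15, and an exact two-sided permutation test of the log2 numbers over the 6 assignments gave p = 0.667, where no smaller p than 0.333 was possible. The spread between libraries was larger than the difference. Its direction rested on single libraries and on list length: it was −0.87 without the second DMSO library, −0.82 without the first E2 library and −0.031 with the 4 lists shortened to the same length. Against the background, the shares of members were 26.6%, 6.0%, 29.8% and 7.2%, and of all distal T-47D regions 18.1%, 3.54%, 22.7% and 5.66%. With the RNAPII summit inside the region, the shares of the first E2 library were 9.60% and 9.88%, and members were above the background in the other 3 libraries.

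In T-47D, RNAPII lay on a larger share of the members with JUN than of those without. RNAPII of either library was on 113 of the 149 members with JUN under DMSO (75.8%) and on 78 of the 549 without (14.2%). Under E2 it was on 69 of 98 (70.4%) and on 140 of 600 (23.3%). Over all distal T-47D regions the shares with JUN were 63.9% under DMSO and 64.6% under E2, and those without JUN 9.18% and 18.4%. The median widths of the JUN and first-library RNAPII peaks on members under DMSO were 477 and 567 bp, and the part of peak width in these overlaps was not tested.

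Only 4 members gained RNAPII with E2 in both libraries (0.57%), and 1 lost it (0.14%), against 1.03% and 0.15% of all distal T-47D regions. The 4 gained regions were in the RARA gene (chr17:38471747-38471914, in an intron 2702 bp upstream of the nearest RARA start), in MIDEAS (chr14:74195356-74195548), upstream of KRT18 (chr12:53341744-53342002, in an untranslated region of KRT8) and in CUEDC1 (chr17:55979613-55979894). In this order, they lay 364, 11794, 104 and 169 bp from the nearest H3K4me3 region. RARA encodes retinoic acid receptor alpha, MIDEAS a subunit of a mitotic deacetylase complex, and KRT18 the keratin partner of KRT8. In RARA the fold enrichment was 10.6 and 8.15 in the 2 E2 libraries, with no peak in either DMSO library. It was 12.9 and 6.57 in MIDEAS, 12.2 and 6.49 near KRT18 and 12.4 and 4.14 in CUEDC1. The lost region was 32180 bp downstream of the start of AMOTL2 (chr3:134053342-134053564), with 5.89 and 4.49 in the DMSO libraries.

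The members with most proteins lay near MYEOV, CHTF18, TRIB3 and FBLN2, each with 6 of the 8 proteins mapped. The region in the MYEOV intron (chr11:69068903-69069183) lay 84 bp from an H3K4me3 region. Ishikawa JUN there had 35.4 under DMSO and 69.2 under E2, and Ishikawa LSD1 28.9 and 51.4, whereas T-47D JUN had 21.2 and 21.7. TAF1 there had 19.2 under DMSO and 16.6 under E2 in Ishikawa, and SIN3A 21.4 in stripped and 14.0 in full media. JUN and LSD1 were thus both higher under E2 in Ishikawa at this region, and TAF1 lower. The whole Ishikawa lists moved in the same directions. Over all regions with both peaks, the median log2 change was 0.77 for JUN, 0.44 for LSD1 and −0.38 for TAF1. It was also the only member with a RARA peak, at 10.1 under E2 in Ishikawa. H3K27me3 peaks lay on 3 of these 4 regions as well. They had 13.9 (Ishikawa E2) and 5.73 (T-47D DMSO) near MYEOV, 9.45 and 17.0 (Ishikawa DMSO and E2) and 14.7 (T-47D DMSO) near CHTF18, and 10.3 (Ishikawa DMSO) near FBLN2. Peaks of most antibodies were thus found together there.

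TMEM184A, ANKRD2 and ALDOC carried the strongest RNAPII among these 10. The member in TMEM184A lay 8 bp from an H3K4me3 region. Its fold enrichment of RNAPII was 94.0 in the first DMSO library, absent from the second, and 40.1 and 8.45 in the E2 libraries. At ALDOC, a glycolytic aldolase gene, it was 60.1 and 10.9 under DMSO and 23.9 and 17.3 under E2. In ANKRD2 it was 56.4 and 31.6 under DMSO and 40.3 and 33.1 under E2. The values of the 2 treatments overlapped in ALDOC and ANKRD2, and the first libraries were higher than the second in each of the 3 regions.

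**Figure D4:**
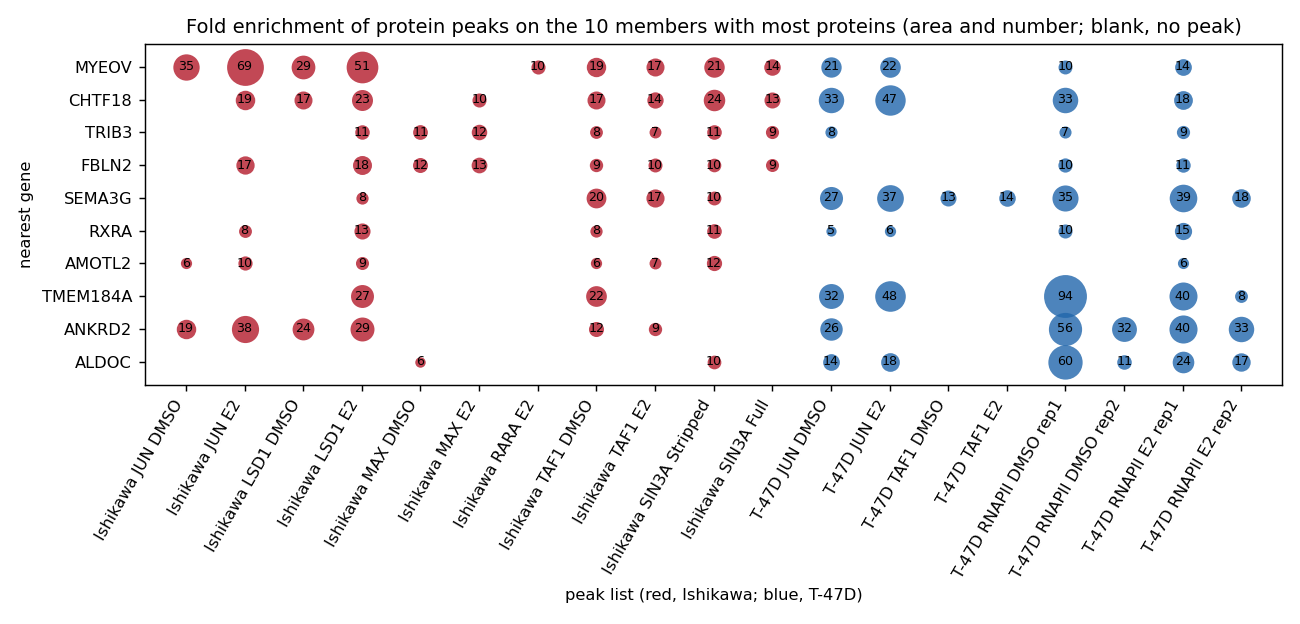
Fold enrichment (area of each circle and the number in it) of every protein peak on the 10 members with most proteins, by nearest gene (rows) and peak list (columns, red for Ishikawa and blue for T-47D). A blank cell is a list with no peak on the member. The region near MYEOV has the highest Ishikawa JUN value, 69.2 under E2.

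The nearest protein-coding genes of the members numbered 493 of 20090 (2.45%). Most of these genes, 388, had 1 member, and 37 had at least 3 members, which held 174 members between them. ZMIZ1, whose protein is a coactivator of nuclear receptors, had 14, GSE1, a partner of the LSD1 complex, had 12, and OPA1, a mitochondrial fusion gene, had 11. AMOTL2 had 8, CUEDC1 and MYC had 7 each, MIDEAS had 6, and RXRA, TRIB3, CXXC5, ARF6 and TNS3 had 5, of which the first 3 had the highest summed H3K4me1 fold enrichment and are counted among the 10 genes named. Members also clustered along the chromosome: 220 of them stood in groups of at least 2 within 10000 bp of each other, the largest of 7.

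In ZMIZ1, 12 of the 14 members lay in the gene's introns, and 2 lay upstream, up to 144838 bp from a start. JUN was on 6 of them in T-47D and on 3 in Ishikawa, RNAPII on 10, and H3K4me1 under E2 on 12 in Ishikawa and 4 in T-47D. In one intron (chr10:80922208-80922606) JUN had 16.1 and 15.6 under DMSO and E2 in T-47D, and 22.04 under E2 in Ishikawa. RNAPII there had 15.04 and no peak under DMSO, and 31.0 and 12.1 under E2. The 14 members stood beside 24 T-47D-only and 79 Ishikawa-only distal regions nearest to the same gene.

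GSE1 was the reverse case, with 71 T-47D-only and 31 Ishikawa-only regions beside its 12 members, all of which were intronic. T-47D JUN lay on 8 of them, Ishikawa JUN on none and Ishikawa LSD1 on 2. One intronic member (chr16:85561305-85561881) carried the only c-MYC peak on any member, at 9.79 under E2 in T-47D. The JUN values on GSE1 members were low, from 4.15 to 10.6.

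AMOTL2, which encodes an angiomotin that binds the Hippo effector YAP, had 8 members, 1 T-47D-only and 15 Ishikawa-only regions. Its member in an untranslated region of the gene (chr3:134074138-134074531) had RNAPII at 56.2 and 23.6 under DMSO and 36.4 and 27.3 under E2 in T-47D. Ishikawa JUN on it was 10.3 under DMSO and 35.96 under E2, and T-47D JUN was 14.7 under DMSO and absent under E2. CXXC5, which encodes a CXXC zinc finger protein, had 21 Ishikawa-only and no T-47D-only regions beside its 5 members. MYC had its 7 members from 67997 to 152598 bp downstream of its start, in the non-coding genes there. T-47D JUN was on 4 of these and Ishikawa JUN on none.

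**Figure D5:**
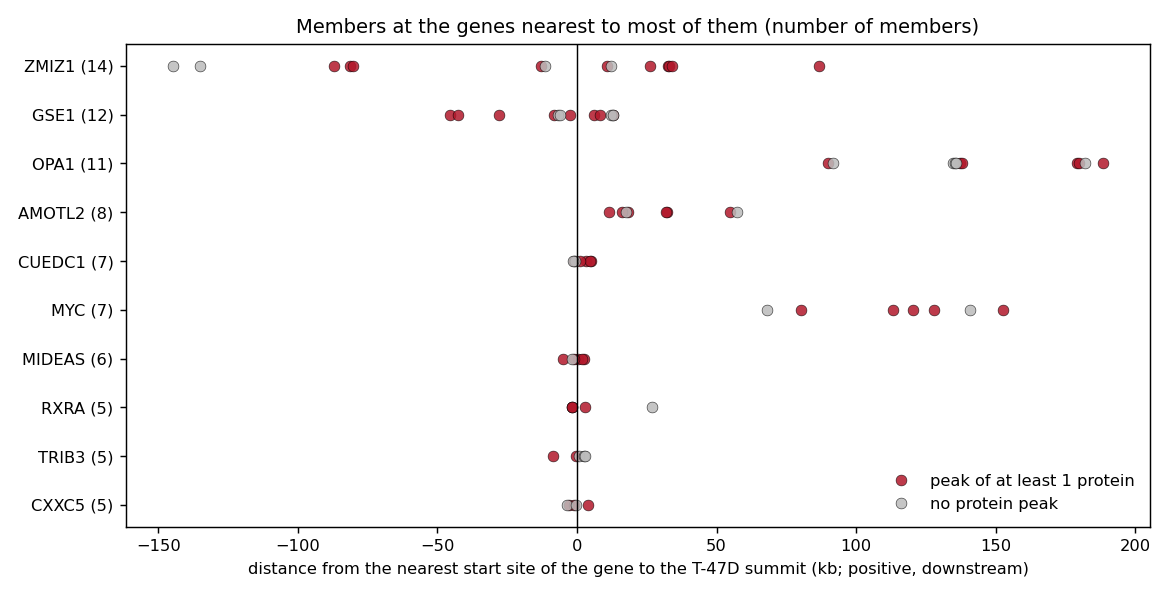
Distance in kb of each member from the nearest start site of its nearest gene (x axis, positive downstream), for 10 genes with most members (ties by summed fold enrichment), with members that carried at least 1 protein peak in red. ZMIZ1 has 14 members on both sides of its starts, and the 11 of OPA1 all lie downstream.

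Gene lists were read against the 2.45% of all protein-coding genes that were the nearest gene of a member. Each list was also counted for T-47D-only and Ishikawa-only regions, which had more nearest genes in all (1940 and 5220 against 493). Of 5 epithelial keratin genes, 4 were nearest to members (KRT80 with 4 members, KRT18 and KRT7 with 2 each and KRT8 with 1), against 4 for T-47D-only and 5 for Ishikawa-only regions. The 4 genes with members share 1 cluster on chromosome 12, so they are not independent of each other. Under DMSO the H3K4me1 fold enrichment of these 9 members reached 31.4 in Ishikawa, near KRT80, and 8.77 in T-47D, near KRT8. Retinoid pathway genes numbered 3 of 17: RXRA with 5 members, RARG with 3 and RARA with 2, against 5 for T-47D-only and 9 for Ishikawa-only regions. The 3 of RARG, which encodes retinoic acid receptor gamma, carried no protein peak, and 4 of the 5 of RXRA did.

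Of 22 Hippo pathway and TEAD target genes 4 were nearest to members, namely AMOTL2, WWC1, TEAD1 and CCN1, against 7 for T-47D-only and 17 for Ishikawa-only regions. WWC1, which encodes the Hippo activator KIBRA, had 4 members, all with RNAPII in T-47D and 2 with JUN in Ishikawa under E2. Of 24 estrogen-induced genes 4 were: MYC with 7, RARA with 2, and CCND1 and SIAH2 with 1 each, against 16 and 13 for the other sets. The member near SIAH2, an E3 ubiquitin ligase gene, had Ishikawa JUN at 11.9 under E2, and T-47D RNAPII at 14.6 in the first E2 library. The counts in the other lists were 4 of 14 epithelial transcription factor genes (CEBPB, GRHL2, ELF3 and TP63), 4 of 27 actin and focal adhesion genes, 3 of 32 junction and polarity genes, 3 of 25 growth factor receptor and feedback genes and 1 of 12 AP-1 genes.

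No gene of the 7 luminal breast transcription factors or of the 12 Müllerian and endometrial ones was nearest to a member. Among T-47D-only distal regions, 6 of the 7 luminal genes and 3 of the 12 Müllerian ones were the nearest gene. Among Ishikawa-only regions 2 of the 7 and 6 of the 12 were. Of all 20090 protein-coding genes, 1940 were nearest to a T-47D-only and 5220 to an Ishikawa-only region. Of 29 markers of other cell types, none was the nearest gene of a member, while 4 were for T-47D-only and 9 for Ishikawa-only regions. The counts of the 3 sets are not on an equal footing, given their numbers of nearest genes. Only 2.45% of all protein-coding genes were nearest to a member. At that share, lists this short would hold few such genes or none, so the counts of 0 say little about the members. Lists of gene names say where the regions lay and not which genes they act on.

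Some shares differed with the distance of a member from H3K4me3. Among the 365 members at least 1000 bp away, an Ishikawa JUN E2 peak lay on 13.4% against 7.5% of the 333 closer ones, and an Ishikawa H3K4me1 E2 peak on 66.6% against 78.1%. T-47D JUN under DMSO was on 22.5% and 20.1% of members, against 16.5% and 18.8% of all distal T-47D regions. T-47D RNAPII in the first DMSO library was on 24.7% and 28.8%, above the 14.3% and 23.8% of T-47D-only regions at those distances.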

How the data were processed

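ChIP-seq peak lists of 45 libraries were used, and 4 input samples were not analysed here. According to the study's methods, the authors aligned reads to hg19 with Bowtie (1.1.2 in the submitters' processing notes), kept uniquely placed reads and called peaks per library with MACS2 (2.1.0.20140616). For each peak the authors deposited a score, a fold enrichment (the ratio of ChIP pileup to local background at the summit) and −log10 values of p and q. The score had a median of 9.98 times the −log10 p-value, and no list held a peak with a −log10 p-value under 10.0. Depths are not given in the lists, so a list without a peak does not show that the protein is absent, and the part of depth in list length was not tested.

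Members, backgrounds, distances and overlaps (at least 1 bp) were computed with Python 3.11.15, pandas 2.3.3 and SciPy 1.17.1. Distances ran from the H3K4me1 summit to the nearest GENCODE release 44 start. All peak ends lay within GRCh37 chromosome lengths. Shares carry exact 95% binomial intervals. RNAPII numbers were compared by exact permutation, and replicate libraries are not stated to be separate cultures. Named regions were the 10 strongest by H3K4me1, the 10 with most proteins, those with gained or lost RNAPII, and the 5 strongest with JUN in both lines. Named genes were the 10 nearest to most members and those of 13 gene lists, of which 1 is not reported here. Members and lists were chosen with earlier results of these data known. The code for overlaps, distances and letters was tested on simulated data. Alternatives were another overlap rule, a stricter threshold, distance from start sites or H3K4me3, all annotated genes, equal list lengths and leaving out libraries.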

Additional observations from a re-analysis of the deposited data

Results flagged for a closer look

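The number of members with a JUN peak moved in opposite directions in the 2 lines. It went from 7 under DMSO to 74 under E2 in Ishikawa, a log2 change of 3.40, and from 149 to 98 in T-47D, a log2 change of −0.60. The changes differ by 4.01 on the log2 scale. Each number comes from 1 library, so the difference was not tested. The whole JUN lists moved in the same directions, from 3768 to 18311 regions in Ishikawa and from 28703 to 24885 in T-47D.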

How the results depend on the processing

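Of 76 alternative values for 15 results, 52 stayed within the bounds set for them, 21 moved and 3 reversed, and the cause was not tested. The number of members was 284 with a reciprocal overlap of 50% and 365 at least 1000 bp from every H3K4me3 region, an alternative chosen after seeing the data. Asking for the summit of the other peak inside the member lowered the shares most. It gave 17.9% for T-47D H3K4me1 E2, 46.0% for Ishikawa H3K4me1 E2, 6.02% for T-47D JUN under DMSO and 4.58% under E2 (the same for any of the 6 proteins with lists in both lines and treatments). It gave 0.143% and 4.44% for Ishikawa JUN under DMSO and E2, 1.15% and 4.87% for Ishikawa LSD1, and 2.44% and 7.45% for any of these proteins in Ishikawa. With the reciprocal overlap, Ishikawa H3K4me1 E2 was on 65.5% and LSD1 E2 on 8.45%. At least 1000 bp from H3K4me3, T-47D H3K4me1 E2 was on 18.9%, Ishikawa H3K4me1 E2 on 66.6%, Ishikawa JUN E2 on 13.4% and Ishikawa LSD1 DMSO on 5.21%. The median distance to a start was 4759 bp over all annotated genes. The RNAPII difference was −0.031 (exact permutation p = 1) with lists of equal length, and from −0.87 to 1.28 leaving out 1 library at a time, negative without the second DMSO or the first E2 library. Leaving out 1 library mixes treatment with the offset between first and second libraries. With the replicate number as a replicate block the difference was 0.21 (exact permutation p = 0.5, over 2 pairs). Deviations of same-numbered libraries correlated at 0.43 over 4665 regions, the same value for both numbers by construction, and the labels give the pairs only a number. Depth is not given in the lists, which limits what a missing peak shows.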
